A study of Drosophila melanogaster with 4 samples.

Results

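The cell division genes described here are 43 genes of Drosophila melanogaster, chosen by name from the 16489 gene symbols of the count tables. They comprise 5 regulators of the step from growth phase to DNA synthesis (G1/S), 12 origin licensing genes, 4 genes of DNA synthesis and nucleotide supply, 8 genes of mitotic entry and exit, 7 spindle, kinetochore and checkpoint genes, 6 cytokinesis genes and the Myc gene. Of the 43, 41 carry the listed symbol, fzr appears in the tables as rap, and zw10 appears as Zw10. RNA was sequenced from adult heads, 30 per library, of flies with an activated Yorkie driven in the eye (genotype GMR>yki S168A, n = 2 libraries) and of control flies with the driver alone (genotype GMR-Gal4, n = 2 libraries). Both groups therefore carry the GMR-Gal4 driver, which is active mainly in the developing eye behind the morphogenetic furrow, while the RNA came from the whole head. The series title calls the transgenic tissue a yki tumor. The labels used here state neither the age nor the sex of the flies, nor whether the libraries came from separate crosses. The p-values therefore reflect variation among these 4 libraries alone, which may be technical.

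Yorkie is the transcriptional co-activator held back by the Hippo kinase cascade, and the serine replaced in the S168A form is a site through which the kinase Warts inactivates it. In growing imaginal discs, active Yorkie is known for raising cell number through cell cycle and growth genes, Cyclin E among them. A cell enters S phase when Cyclin D and Cyclin E with their kinases release E2F from the Rbf brake. Replication origins are first licensed by the origin recognition complex (ORC), Cdc6, the product of dup (Cdt1) and the MCM helicase, and later fired and copied with PCNA as the sliding clamp. Mitosis needs Cyclins A and B and the phosphatase String, and ends with destruction of the cyclins and constriction of an actomyosin ring. Myc is the main transcriptional regulator of ribosome production and cell size. Nearly all cells of an adult fly head are post-mitotic.

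The libraries summed to 17311383 and 18108814 counts in yki S168A heads and to 16817968 and 15738860 counts in control heads, and levels are given as counts per 1000000 (CPM) of the TMM-scaled library size. On that scale 3 counts correspond to 0.170 to 0.184 CPM. The driven gene, yki, was at 32.2 and 27.2 CPM in yki S168A heads and at 12.4 and 18.4 CPM in control heads (log2 fold change 0.95, edgeR adjusted p = 0.0112). All 8 neuron and photoreceptor markers examined were lower in both yki S168A libraries, 6 of them called. They summed to 3154 and 3892 CPM in yki S168A heads and to 7678 and 7758 CPM in control heads. Of all genes tested, 31.2% were lower in both yki S168A libraries than in either control library. Calls covered 15.1% of all genes tested as higher and 12.5% as lower. All 6 hemocyte markers had a negative log2 fold change and 2 were called lower; they summed to 69.9 and 38.9 CPM in yki S168A heads and to 87.6 and 93.1 CPM in control heads. The 5 glial markers summed to 443 and 462 CPM in yki S168A heads and to 358 and 342 CPM in control heads, with moody alone called (4.99-fold higher). Among neuroblast markers, ase and wor had 0 counts in all 4 libraries and dpn had 1 count in yki S168A replicate 2, while insc was called higher (5.52-fold) and pros lower (1.40-fold). Of the 12 germline and follicle cell markers 4 were tested and 2, ovo and Cp16, were called higher; the list summed to 54.5 and 49.4 CPM in yki S168A heads and to 24.3 and 26.0 CPM in control heads, of which ovo made up 50.5 and 42.7 CPM in yki S168A heads and 18.9 and 19.9 CPM in control heads. The germline markers vas and bam had 0 counts in both yki S168A libraries, against 12 and 3 counts for vas and 12 and 7 counts for bam in the control libraries. Leaving moody aside, 3 of the 4 other glial markers were lower in both yki S168A libraries than in either control library, without a call. The part of such marker shifts in the results that follow was not tested. In RNA of whole heads, fewer cells of a type and less RNA per cell cannot be told apart.

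In yki S168A heads, the replication clamp gene PCNA, both subunit genes of ribonucleotide reductase (RnrS and RnrL), the anillin gene scra and the mitotic phosphatase gene stg rose. The origin licensing gene Cdc6, the Myc gene dm, fzr and the checkpoint gene BubR1 fell. The calls of stg, fzr and BubR1 did not hold in every alternative fit, and the dm counts cannot be assigned to dm alone. Of the 41 members with enough counts to test, 5 were called higher and 4 lower, 12.2% and 9.76%. Among all 10896 genes tested, 15.1% were called higher and 12.5% lower (edgeR's quasi-likelihood test, Benjamini-Hochberg adjusted p below 0.05). The members were thus called at shares near those of all genes. Their median log2 fold change was 0.19, against 0.01 for all genes tested. With upper-quartile scaling the median of all genes moved to −0.15, and 39.9% of all calls were higher in place of 54.8%. The libraries of the 2 groups did not overlap for 16 members with higher and 8 with lower values in yki S168A heads (39.0% and 19.5% of those tested), against 32.1% and 31.2% of all genes tested.

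**Figure D1:**
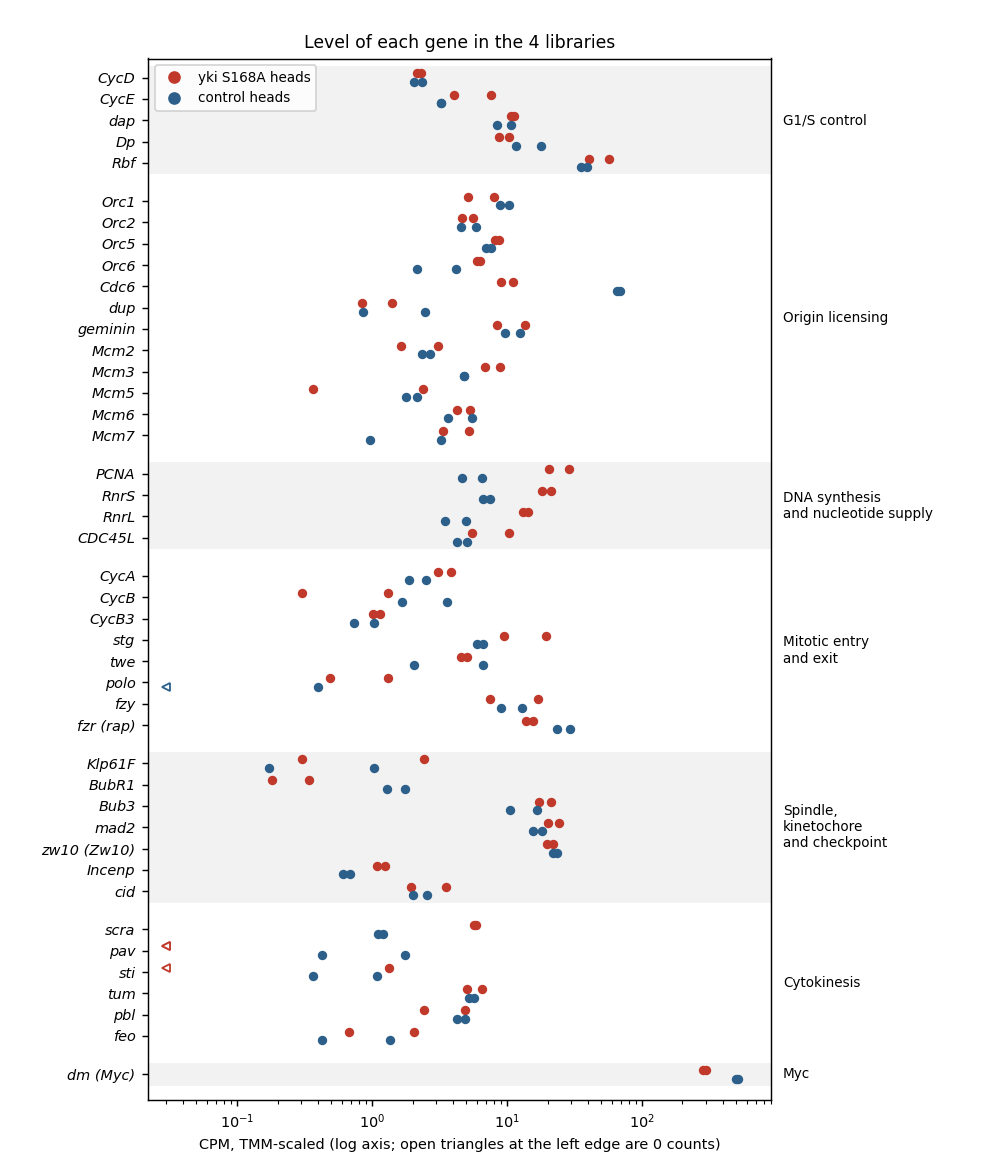
Level of each of the 43 genes in each library, in TMM-scaled CPM on a log axis, with yki S168A libraries drawn above control libraries in each row and open triangles for 0 counts. PCNA, RnrS, RnrL and scra show both yki S168A libraries well to the right of both control libraries, Cdc6 and dm show the reverse, and 33 of the 43 genes average below 10 CPM in control heads.

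Levels were low for most members. In control heads, the median member had 1.84 CPM per kilobase of exon, against 7.04 for the median of 10782 tested genes with a known exon length, and 35 of the 43 members lay below that median. Myc led in control heads at 55.4 CPM per kilobase, above 89.0% of tested genes, followed by Cdc6 at 27.2 and the checkpoint gene mad2 at 20.7. At the other end in control heads stood the mitotic kinase gene polo at 0.0671 CPM per kilobase, the citron kinase gene sti at 0.119 and the kinesin gene Klp61F at 0.157. These 3 genes had at most 43 counts in any library. Of the 32 tested members that were not called, 10 had a 95% interval of the fold change that stayed within 2-fold in either direction, and 22 had an interval that reached beyond it.

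**Figure D2:**
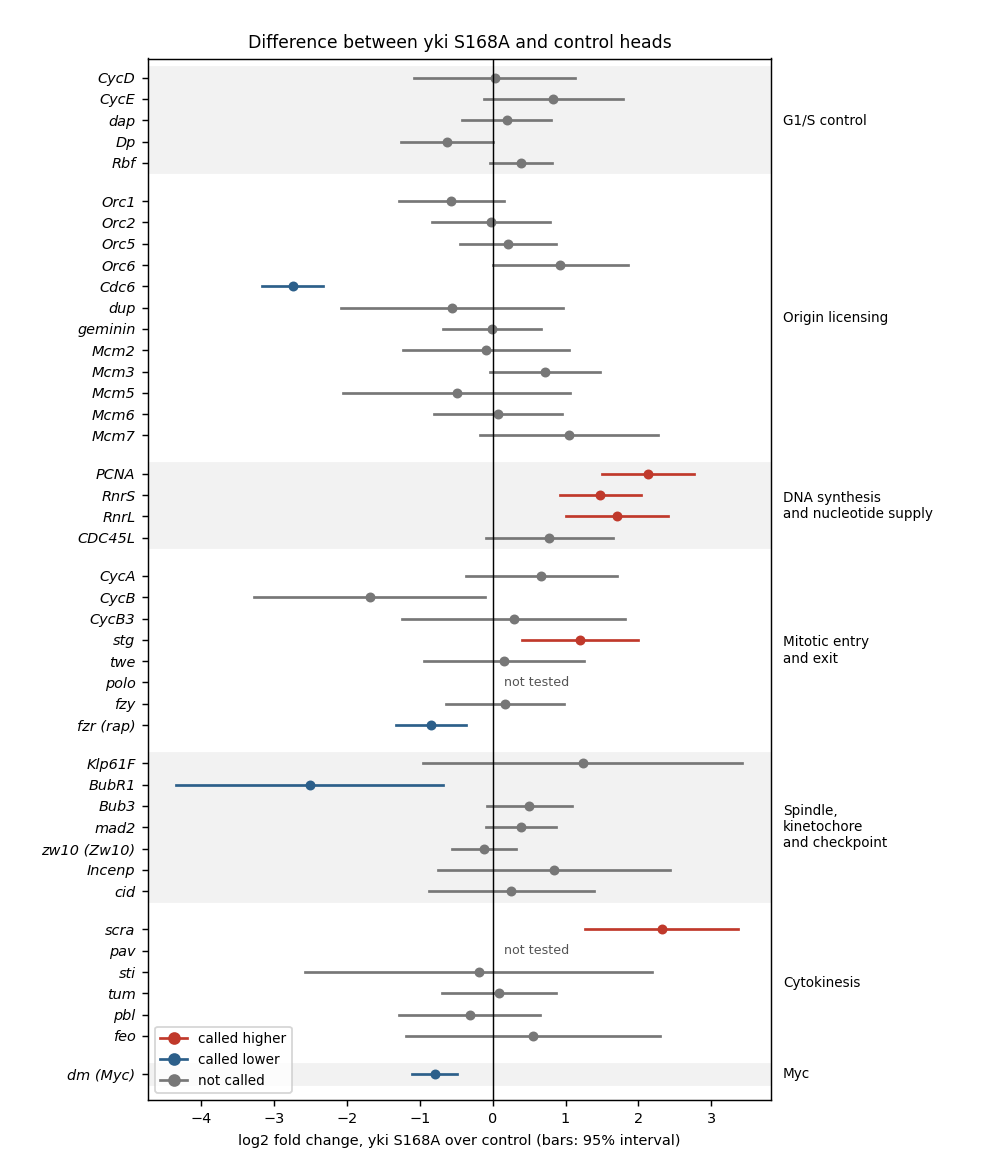
Log2 fold change of yki S168A over control heads for the 41 tested genes, by role, with bars for the 95% interval. All 4 genes of DNA synthesis and nucleotide supply lie to the right of 0, Cdc6 and BubR1 lie far to the left, and the intervals of several mitotic and cytokinesis genes span more than 2-fold in both directions.

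Genes of DNA synthesis and nucleotide supply had the highest median log2 fold change of the role groups, 1.59. Of the 4 members, chosen with earlier results of these data known, 3 were called higher and 0 lower. The shares were 75% and 0%, beside 15.1% and 12.5% of all genes tested. In the wider list of 29 other replication genes, 1 was called higher and 1 lower. The clamp gene PCNA (FBgn0005655, chromosome 2R, 20261754 to 20262883, minus strand; this and all later positions are on build dm6) had 20.4 and 28.7 CPM in yki S168A heads and 6.51 and 4.66 CPM in control heads. Both yki S168A libraries lay well above both control libraries. Its log2 fold change was 2.13 ± 0.29 (SE, edgeR adjusted p = 0.000247), or 4.38-fold. The neighboring gene Hsl, 28 bases away, was also called higher (log2 fold change 1.57), and the strand setting of the counting is not stated in the labels.

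Ribonucleotide reductase makes the deoxyribonucleotides from which DNA is built, and its large and small subunits act as one enzyme. The small subunit gene RnrS (FBgn0011704, chromosome 2R, 11983145 to 11985393, minus strand) was at 18.2 and 21.2 CPM in yki S168A heads and at 7.48 and 6.63 CPM in control heads. The large subunit gene RnrL (FBgn0011703, chromosome 2L, 10325026 to 10327943, minus strand) was at 14.3 and 13.2 CPM in yki S168A heads and at 3.48 and 4.97 CPM in control heads. The groups did not overlap for either subunit, as for 32.1% of all genes tested in this direction. The neighbor of RnrS, CG33145, 189 bases away, was also called higher (log2 fold change 1.41). The log2 fold changes were 1.48 ± 0.26 for RnrS and 1.70 ± 0.32 for RnrL (SE, edgeR adjusted p = 0.0014 and 0.00219). The 95% intervals of the 2 subunits overlapped, 0.92 to 2.04 and 1.01 to 2.40. The fourth member, CDC45L, encodes the Cdc45 subunit of the active replicative helicase. CDC45L was at 10.4 and 5.56 CPM in yki S168A heads and at 5.03 and 4.24 CPM in control heads, a log2 fold change of 0.78 that was not called (edgeR adjusted p = 0.175). Its replicate 1 in yki S168A heads lay well above the other 3 libraries. Without yki S168A replicate 2 it passed (log2 fold change 1.17, edgeR adjusted p = 0.0355), and over the 12 alternatives its adjusted p ran from 0.0355 to 0.708.

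Among origin licensing genes, 0 of 12 were called higher (0%, beside 15.1% of all genes tested). Only Cdc6 was called lower (8.33%, beside 12.5%), and the median log2 fold change was −0.02. Cdc6 (FBgn0035918, chromosome 3L, 8631509 to 8634069, minus strand), which with ORC loads the MCM helicase onto DNA, was at 9.11 and 11.0 CPM in yki S168A heads and at 69.0 and 65.9 CPM in control heads. Its fall of 6.70-fold (log2 fold change −2.74 ± 0.19, SE, edgeR adjusted p = 1.58e-06) had the smallest p among the members. No other gene's exons overlap those of Cdc6 in the annotation. Of its nearest protein-coding neighbors, Cpr66D, 6370 bases away, was also called lower (log2 fold change −1.90), and GAPsec, 7608 bases away, was not called (−0.14). In CPM per kilobase, Cdc6 was at 4.05 in yki S168A heads and 27.2 in control heads, whereas PCNA was at 22.9 in yki S168A heads and 5.22 in control heads, so the order of these replication genes differed between the groups.

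None of the licensing partners of Cdc6 was called in either direction, while 27.6% of all genes tested were. The subunit gene Orc6 was at 6.31 and 5.96 CPM in yki S168A heads and at 4.23 and 2.15 CPM in control heads (log2 fold change 0.93, edgeR adjusted p = 0.128). Over the whole origin recognition complex, with Orc4 and lat (the Orc3 subunit gene) from the wider list, 0 of 6 subunit genes were called and log2 fold changes ran from −0.57 for Orc1 to 0.93 for Orc6. The helicase gene Mcm3 was at 8.86 and 6.92 CPM in yki S168A heads and at 4.80 and 4.79 CPM in control heads (log2 fold change 0.72, edgeR adjusted p = 0.15). With dpa (the Mcm4 subunit gene), 0 of 6 MCM subunit genes were called, and their log2 fold changes ran from −0.50 for Mcm5 to 1.05 for Mcm7. Mcm5 had 6 and 42 counts in yki S168A heads and 38 and 29 in control heads, so its spread lies within the yki S168A group. For Mcm7, 81.7% of the exonic bases lie opposite an antisense RNA gene, and its log2 fold change was 0.40 without control replicate 1 and 2.14 without control replicate 2. Neither the Cdt1 gene dup (log2 fold change −0.55, 95% interval −2.08 to 0.97) nor its inhibitor geminin (−0.01, −0.68 to 0.66) was called. The remaining licensing members, Orc2, Orc5, Mcm2 and Mcm6, had log2 fold changes of −0.02, 0.21, −0.09 and 0.07.

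G1/S regulators were called in 0 of 5 cases (0%, beside 27.6% of all genes tested in either direction). Their median log2 fold change was 0.19. CycE, the cyclin that starts S phase and a known Yorkie target in discs, was at 7.59 and 4.09 CPM in yki S168A heads and at 3.26 and 3.25 CPM in control heads. Both yki S168A libraries were above both control libraries, but they differed from each other by more than the control libraries did, and the difference was not called (log2 fold change 0.83 ± 0.43, SE, edgeR adjusted p = 0.186). The E2F partner gene Dp was at 8.68 and 10.4 CPM in yki S168A heads and at 17.8 and 11.7 CPM in control heads (log2 fold change −0.63, edgeR adjusted p = 0.131). Rbf, the fly retinoblastoma gene and repressor of E2F, was at 40.6 and 57.1 CPM in yki S168A heads and at 35.5 and 39.0 CPM in control heads (log2 fold change 0.39, edgeR adjusted p = 0.16). Rbf passed without yki S168A replicate 1 (log2 fold change 0.61, edgeR adjusted p = 0.022), with a range of 0.022 to 0.654 over the 12 alternatives. For the Cyclin D gene CycD (log2 fold change 0.03, 95% interval −1.08 to 1.13) and the CDK inhibitor gene dap (0.19, −0.42 to 0.80), dap's interval stayed within 2-fold and that of CycD did not.

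Among genes of mitotic entry and exit, 1 of 7 tested was called higher and 1 lower, each 14.3%. Of all genes tested, 15.1% were called higher and 12.5% lower. The median log2 fold change of the group was 0.17. The phosphatase gene stg (string, the fly Cdc25 of somatic mitosis; FBgn0003525, chromosome 3R, 29251826 to 29255800, minus strand) had 157 and 343 counts in yki S168A heads and 105 and 109 counts in control heads. Both yki S168A libraries were above the control libraries, with replicate 2 far above replicate 1. Its log2 fold change of 1.20 ± 0.36 (SE) passed narrowly (edgeR adjusted p = 0.0296). It was not called when yki S168A replicate 2 was dropped (log2 fold change 0.59, edgeR adjusted p = 0.236), nor when control replicate 1 (adjusted p = 0.105) or control replicate 2 (adjusted p = 0.0667) was. It also missed the threshold with upper-quartile scaling (adjusted p = 0.0521) and with limma-voom (adjusted p = 0.0534), and over all 12 alternatives its adjusted p ran from 0.00185 to 0.236. Its paralog twe (twine), known for its role in meiosis, was at 5.10 and 4.54 CPM in yki S168A heads and at 2.06 and 6.69 CPM in control heads (log2 fold change 0.16, edgeR adjusted p = 0.857).

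Destruction of the mitotic cyclins is triggered by the ubiquitin ligase APC/C with its activators Fizzy and Fizzy-related. The gene fzr (listed as rap; FBgn0262699, chromosome X, 4667290 to 4679537, minus strand), whose product keeps APC/C active in cells that have left the cycle or endocycle, was at 14.0 and 15.5 CPM in yki S168A heads and at 29.5 and 23.4 CPM in control heads. It was lower in both yki S168A libraries (log2 fold change −0.85 ± 0.22, SE, edgeR adjusted p = 0.0137), and the call was lost without control replicate 1 (−0.67, edgeR adjusted p = 0.168, with a range of 0.00225 to 0.168 over the 12 alternatives). The mitotic activator gene fzy was at 7.53 and 17.0 CPM in yki S168A heads and at 9.02 and 13.0 CPM in control heads, and its groups overlapped (log2 fold change 0.17, edgeR adjusted p = 0.785). The difference between the 2 activators was not itself tested.

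None of the 3 mitotic cyclins was called. CycA was at 3.10 and 3.86 CPM in yki S168A heads and at 1.88 and 2.52 CPM in control heads (log2 fold change 0.67, edgeR adjusted p = 0.335). CycB had 5 and 23 counts in yki S168A heads and 63 and 27 counts in control heads, a log2 fold change of −1.69 with a 95% interval of −3.27 to −0.10 (edgeR adjusted p = 0.109). With a library left out, the log2 fold change of CycB lay between −3.10 (without yki S168A replicate 2) and −1.01 (without control replicate 1), and it was −1.02 without yki S168A replicate 1. CycB3 had 19 and 18 counts in yki S168A heads and 18 and 12 counts in control heads (log2 fold change 0.29, edgeR adjusted p = 0.807). The kinase gene polo, with 8 and 23 counts in yki S168A heads and 7 and 0 counts in control heads, was below the count filter and not tested.

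Spindle, kinetochore and checkpoint genes were called lower in 1 of 7 cases (14.3%, beside 12.5% of all genes tested). Calls as higher were 0%, beside 15.1%, and the median log2 fold change was 0.39. BubR1 (FBgn0263855, chromosome 2R, 5969099 to 5974385, minus strand), a kinase of the spindle checkpoint, had 3 and 6 counts in yki S168A heads and 31 and 21 counts in control heads. Its log2 fold change of −2.51 had a 95% interval of −4.34 to −0.68 (edgeR adjusted p = 0.0434), and over the alternative fits the adjusted p ran from 0.0311 to 0.337. The call was lost in 8 of the 11 alternatives that kept the gene, among them each of the 4 fits with a library left out and DESeq2 (adjusted p = 0.0868). Its neighbor mle, 472 bases away, was called higher (log2 fold change 3.32). The other checkpoint genes had more counts and were not called. Bub3 was at 17.4 and 21.2 CPM in yki S168A heads and at 10.6 and 16.7 CPM in control heads (log2 fold change 0.50, edgeR adjusted p = 0.187). For mad2, values were 20.2 and 24.2 CPM in yki S168A heads and 15.6 and 18.2 CPM in control heads (log2 fold change 0.39, edgeR adjusted p = 0.214). The interval for mad2, −0.09 to 0.87, stayed within 2-fold, as did that for zw10, a kinetochore gene (log2 fold change −0.12, 95% interval −0.56 to 0.31). The mitotic kinesin gene Klp61F had 5 and 43 counts in yki S168A heads and 3 and 17 counts in control heads, with a log2 fold change of 1.23 (95% interval −0.96 to 3.42). Its direction turned without yki S168A replicate 2 (−0.95), and it reached 2.98 without control replicate 2. The centromeric histone gene cid had a log2 fold change of 0.25 (95% interval −0.88 to 1.39), which was −0.25 without yki S168A replicate 2. The chromosomal passenger gene Incenp had 18 and 22 counts in yki S168A heads and 12 and 10 counts in control heads (log2 fold change 0.84, 95% interval −0.75 to 2.43). None of these 3 genes was called.

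Cytokinesis genes included 1 of 5 tested called higher (20%, beside 15.1% of all genes tested). Calls as lower were 0%, beside 12.5%, and the median log2 fold change was 0.09. The anillin gene scra (FBgn0261385, chromosome 2R, 7590119 to 7595242, plus strand), which scaffolds the contractile ring, had 97 and 100 counts in yki S168A heads and 21 and 18 counts in control heads. In CPM these are 5.89 and 5.67 in yki S168A heads against 1.20 and 1.10 in control heads, with close replicates in both groups. The log2 fold change was 2.32 ± 0.48 (SE, edgeR adjusted p = 0.00426), 4.98-fold, and its overlap with other genes' exons was 0%. Its neighbors CG1360 and CG1358, 10 and 23 bases away, were not called (log2 fold change −0.51 and −0.33).

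None of the other tested ring and midzone genes among the members was called. Both subunits of centralspindlin, the complex that bundles the central spindle, were measured. The kinesin gene pav had 0 counts in both yki S168A libraries and 31 and 7 counts in control heads. The control mean was 6.24 times a floor of 3 counts per library. That mean rested mostly on control replicate 1, at 1.77 CPM against 0.43 CPM in control replicate 2. In the main fit pav fell below the count filter (edgeR adjusted p = 0.0597 with no filter). Its partner gene tum was at 5.04 and 6.58 CPM in yki S168A heads and at 5.71 and 5.22 CPM in control heads (log2 fold change 0.09, 95% interval −0.69 to 0.87). The gene pbl, which is required for ring assembly, was at 2.43 and 4.88 CPM in yki S168A heads and at 4.85 and 4.30 CPM in control heads (log2 fold change −0.31, edgeR adjusted p = 0.651). The midzone gene feo had 34 and 12 counts in yki S168A heads and 24 and 7 counts in control heads (log2 fold change 0.56, edgeR adjusted p = 0.655). The citron kinase gene sti had 22 and 0 counts in yki S168A heads and 19 and 6 counts in control heads (log2 fold change −0.19, edgeR adjusted p = 0.922).

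Myc (listed as dm; FBgn0262656, chromosome X, 3373159 to 3391697, plus strand) fell to 300.1 and 285 CPM in yki S168A heads, against 517 and 499 CPM in control heads. Both yki S168A libraries lay well below both control libraries. Per kilobase of exon, dm was the highest member in yki S168A heads (31.9 CPM) and in control heads (55.4 CPM). Its log2 fold change was −0.80 ± 0.14 (SE, edgeR adjusted p = 0.00159), 1.74-fold lower. Of its exonic bases 40.9% lie opposite CG12535 and 20.3% are shared with a long non-coding RNA on the same strand. The strand setting, which is not stated, bears only on the bases opposite CG12535. It would not separate dm from the RNA that shares its strand, so the counts cannot be assigned to dm alone. With dm left out, the remaining members summed to 319 and 382 CPM in yki S168A heads and to 337 CPM in each control library.

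**Figure D3:**
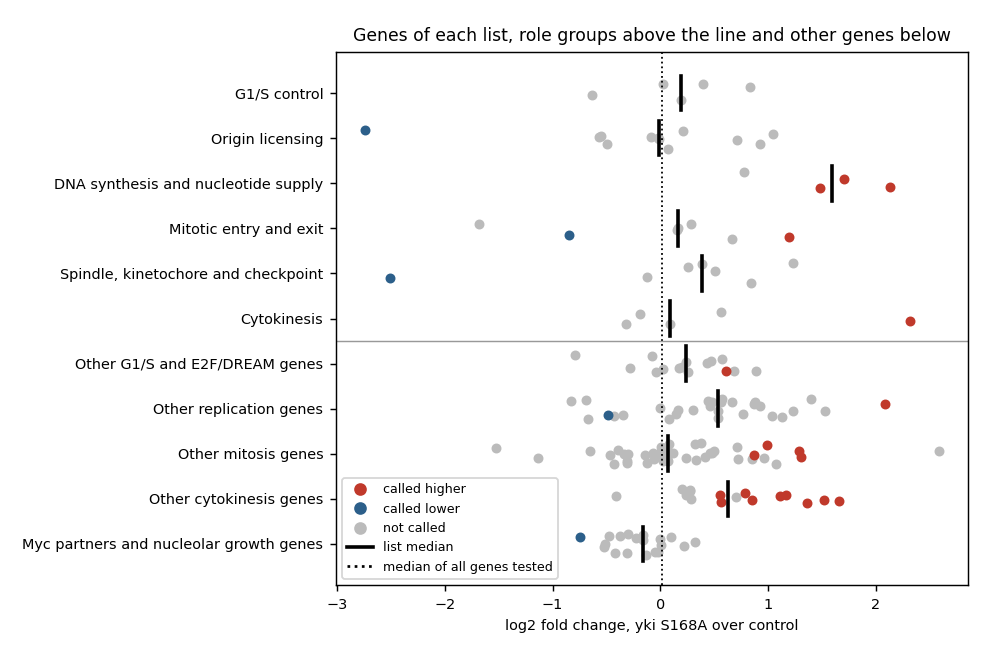
Log2 fold change of yki S168A over control heads for each tested gene of the role groups (above the line) and of the other cell division and growth lists (below it), with a bar at each list's median and a dotted line at the median of all genes tested, 0.01. The medians of DNA synthesis and nucleotide supply (1.59), other cytokinesis genes (0.63) and other replication genes (0.53) lie farthest to the right, and that of Myc partners and nucleolar growth genes (−0.16) farthest to the left among the lists drawn; the single gene of the Myc group, dm, is not drawn.

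A wider set of 129 cell division and growth genes in 5 lists gave 122 tested genes, of which 15 were called higher and 2 lower (12.3% and 1.64%, beside 15.1% and 12.5% of all genes tested), with a median log2 fold change of 0.21. Among 29 other replication genes, 1 was called higher and 1 lower, with a median of 0.53. DNApol-alpha180, the catalytic subunit of the primase-linked polymerase, had 91 and 47 counts in yki S168A heads and 7 and 25 counts in control heads (log2 fold change 2.09, edgeR adjusted p = 0.0371). It no longer passed when control replicate 1 was dropped (log2 fold change 1.40, edgeR adjusted p = 0.25) or when yki S168A replicate 1 was (1.48, adjusted p = 0.175). It also missed the threshold with no filter (adjusted p = 0.059), limma-voom (adjusted p = 0.0597) or the legacy fit (adjusted p = 0.0607). Over the 12 alternatives its log2 fold change ran from 1.40 to 3.32, the highest without control replicate 2, and its adjusted p from 0.00629 to 0.25. Psf3, a subunit gene of the GINS complex, fell to 191 and 164 CPM in yki S168A heads, against 238 and 257 CPM in control heads (log2 fold change −0.48, edgeR adjusted p = 0.0294), a call lost without either control library or without yki S168A replicate 2, and 34.9% of its exonic bases lie opposite CG17841. Of 15 other G1/S, E2F and DREAM genes, skpA, a subunit gene of SCF ubiquitin ligases, alone was called. It was at 633 and 622 CPM in yki S168A heads and at 391 and 431 CPM in control heads (log2 fold change 0.61, edgeR adjusted p = 0.00939), a call lost without either control library. The activator gene E2f was at 269 and 299.5 CPM in yki S168A heads and at 246 and 257 CPM in control heads (log2 fold change 0.18, edgeR adjusted p = 0.394), and E2f2, the repressing E2F gene, had a log2 fold change of 0.89 (edgeR adjusted p = 0.0801). The last 2 were chosen after their values were seen.

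Of 43 tested other mitosis genes, 4 were called higher and 0 lower, with a median of 0.07. These are 9.3% and 0%, beside 15.1% and 12.5% of all genes tested. The outer kinetochore gene Nuf2 was at 82.9 and 113 CPM in yki S168A heads and at 50.3 and 57.0 CPM in control heads (log2 fold change 0.87, edgeR adjusted p = 0.00386), and passed in all 12 alternatives. The other 3 were the checkpoint kinase gene ald, the condensin subunit gene barr and the kinetochore motor gene cana. For ald, levels were 17.1 and 12.7 CPM in yki S168A heads and 7.42 and 4.54 CPM in control heads (log2 fold change 1.30, edgeR adjusted p = 0.0112), and 2 fits with a library left out lost the call, that without yki S168A replicate 1 (adjusted p = 0.0512) and that without control replicate 2 (adjusted p = 0.0994). For barr, levels were 7.22 and 7.09 CPM in yki S168A heads and 3.08 and 2.76 CPM in control heads (log2 fold change 1.29, edgeR adjusted p = 0.0259), and 3 of the 4 fits with a library left out lost the call (adjusted p of 0.0561 to 0.144). For cana, levels were 10.8 and 10.6 CPM in yki S168A heads and 6.05 and 4.66 CPM in control heads (log2 fold change 0.99, edgeR adjusted p = 0.0352). Its call was lost in all 4 fits with a library left out (adjusted p of 0.0591 to 0.223), with upper-quartile scaling (adjusted p = 0.0674) and with DESeq2 (adjusted p = 0.0525). The groups did not overlap for any of these 4 genes, which were named because they were called. Of all genes tested, 32.1% had higher values in yki S168A heads without overlap. The securin gene pim had 0 counts in all 4 libraries, which allows up to 0.170 to 0.184 CPM for counting error alone.

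Other cytokinesis genes were called higher in 9 of 16 cases (56.2%, beside 15.1% of all genes tested) and lower in 0, with a median of 0.63. The myosin light chain gene sqh was at 269.5 and 285 CPM in yki S168A heads and at 88.6 and 86.9 CPM in control heads (log2 fold change 1.66, edgeR adjusted p = 7.49e-06). The actin-severing cofilin gene tsr was at 357 and 324 CPM in yki S168A heads and at 139.5 and 125 CPM in control heads (1.36, edgeR adjusted p = 4e-05). The septin gene Sep2 had 798 and 806 counts in yki S168A heads and 261 and 293 counts in control heads (1.52, edgeR adjusted p = 0.000128). These 3 genes passed in every alternative run. Their products also build the cortex, the junctions and the cell shape of cells that do not divide.

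Among 19 Myc partner and nucleolar growth genes, 0 were called higher and 1 lower, with a median of −0.16. These are 0% and 5.26%, beside 15.1% and 12.5% of all genes tested. A negative log2 fold change was found for 15 of the 19, and for 5358 of all 10896 genes tested. The nucleolar gene Nnp-1 was at 10.7 and 10.9 CPM in yki S168A heads and at 18.6 and 17.6 CPM in control heads (log2 fold change −0.75, edgeR adjusted p = 0.0351), a call lost in each fit with a library left out. The dimerization partner gene Max had a log2 fold change of 0.10 (95% interval −0.22 to 0.43) and the antagonist gene Mnt of −0.42 (−0.89 to 0.06). Of the 18 genes that were not called, 13 had an interval within 2-fold in either direction. Max and Mnt were also chosen after their values were seen.

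**Figure D4:**
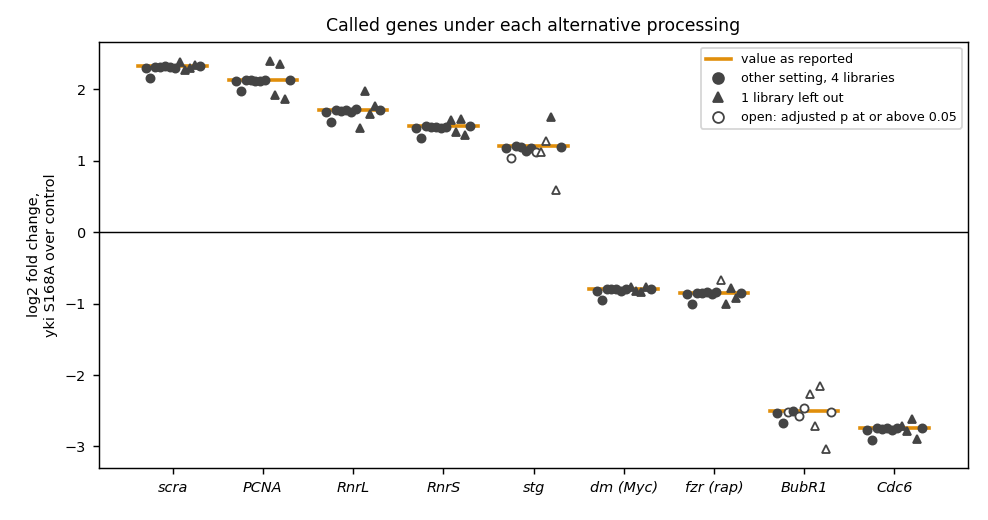
Log2 fold change of the 9 called genes under each alternative processing, with a bar at the reported value, circles for other settings on 4 libraries, triangles for fits with 1 library left out and open symbols where the adjusted p was at or above 0.05. All values keep their sign; the open symbols belong to stg, fzr (rap) and BubR1.

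Across the 12 alternatives to the main fit, 6 of the 9 called members passed every time, namely Cdc6, PCNA, RnrS, RnrL, scra and dm. Their log2 fold changes over these fits ran from −2.90 to −2.62 for Cdc6, from 1.86 to 2.39 for PCNA, from 1.32 to 1.58 for RnrS, from 1.46 to 1.98 for RnrL, from 2.16 to 2.38 for scra and from −0.96 to −0.76 for dm.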

How the data were processed

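Each library was made from the RNA of 30 heads with a Lexogen SENSE mRNA kit, per the labels' protocols. The authors deposited whole-number read counts per gene symbol, 1 table per library. The submitters' processing notes name build dm6; no source used here states the aligner, counting tool or strand setting. Each table has 16509 lines; 37 lines that repeat 17 symbols were added together, which left 16489 symbols, 16270 of them (98.7%) with a FlyBase identifier. Coordinates, exon lengths and overlaps came from Ensembl release 115, in dm6 coordinates.

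The 2 groups were compared with edgeR 4.0.16 in R 4.3.3, using filterByExpr (10896 genes kept), TMM scaling and the quasi-likelihood test with legacy off and no covariate. A gene was called at a Benjamini-Hochberg adjusted p under 0.05 over all tested genes. The standard error is the size of the log2 fold change divided by the root of F. Floors of 3 counts cover counting error only. In counts simulated for these 10896 genes, 58 of 100 genes with a 2-fold and 94 of 100 with a 4-fold change were found. Of 169 calls in the simulation, 17 were false. The changed genes were drawn only from genes above a minimum mean count. These shares therefore do not cover genes of few counts, such as BubR1 and CycB. All other genes were left unchanged, whereas 3006 genes were called in the data. Alternatives were RLE and upper-quartile scaling, no filter, a filter at a mean of 1 CPM, DESeq2 1.42.0, limma-voom (limma 3.58.1), a replicate block, leaving out each library and, chosen after seeing the data, the legacy fit. The members and lists were chosen with earlier results of these data known. Values per library are given for all called members, the 2 uncalled members of each role group with the smallest p, CycE, stg, dm, PCNA and Cdc6, and up to 4 called genes of each wider list, 1 of which is not reported here.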

Additional observations from a re-analysis of the deposited data

How the results depend on the processing

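With upper-quartile scaling the median of origin licensing genes was −0.175, that of cytokinesis genes −0.07, and all genes called were 1276 higher and 1924 lower, against 1647 and 1359, so that most calls were lower. The cytokinesis median was also −0.05 with no filter and 0.32 with the 1 CPM filter. With no filter it was taken over 6 genes, pav included (log2 fold change −7.26), in place of 5. With each library left out in turn, members called higher numbered 4 to 6 and lower 2 to 4 (2 without control replicate 1), and all genes called numbered 983 to 1688 higher and 648 to 1435 lower. Dropping control replicate 1 left 983 higher and 651 lower, and dropping control replicate 2 left 1048 and 648. Leaving out a library also moved the medians of G1/S (0.03 to 0.36), origin licensing (−0.23 to 0.24), mitotic entry and exit (0.19 to 0.66), spindle, kinetochore and checkpoint (−0.06 to 0.605) and cytokinesis genes (−0.21 to 0.80). The lone library is assumed there to vary like the other group. Of the uncalled members, 15 changed sign in at least 1 alternative without being called. Replicate numbers are shared by the groups, and deviations of same-numbered libraries correlated at 0.02 across genes. This correlation cannot decide whether same-numbered libraries share a batch, since a batch may act on only some genes. With the replicate block, 5 members were called higher and 4 lower. Of all genes, 1903 were then called higher and 1723 lower, against 1647 and 1359 without the block. The cause of these shifts was not tested. Depth limits genes of few counts, such as BubR1, CycB, polo, pav and sti.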
